A study of Mus musculus with 3 samples.

Results

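Transcripts of 10 genes that restrain Toll-like receptor and TNF receptor signalling were measured in the cytosol of mouse bone-marrow-derived macrophages: Tnfaip3, Tnip1, Tnip2, Tnip3, Irak3, Cyld, Otulin, Birc2, Birc3 and Inpp5d. The genes were chosen by name for what their proteins do, not by their levels, though with earlier results of these data known. All 10 were found by symbol among the 55536 genes of the deposited tables. The macrophages were primary cells of strain C57BL/6J, and ribosomal RNA was depleted from the RNA of the cytosolic fraction before sequencing. Every library came from cells that had received Lipid A, the lipid anchor of bacterial endotoxin, at 100 ng/ml for 12 h, had then been washed and kept without it for 12 h, and had last been given 100 ng/ml again for 20 min. There were 3 libraries, numbered as biological replicates 1, 2 and 3, and they formed 1 group. All 3 carried the same donor identifier, and sex and age were not collected. Whether separate animals stood behind the replicates is not given in the labels, so the spread between libraries may be in part technical. Cells without Lipid A, cells before the second dose and other fractions were not analysed here, and the values therefore describe levels in this 1 state and no response to Lipid A.

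Lipid A is sensed by TLR4, which assembles MyD88 and the IRAK kinases and, through ubiquitin chains built by TRAF and IAP ligases, switches on NF-kB. Tnfaip3 encodes A20, a ubiquitin-editing enzyme that is itself induced by NF-kB and shuts that signalling down, and Tnip1, Tnip2 and Tnip3 encode the A20-binding proteins ABIN1, ABIN2 and ABIN3. Irak3 encodes IRAK-M, a kinase-like member of the IRAK family that is known as a brake on TLR signalling in endotoxin-tolerant macrophages. Cyld and Otulin remove ubiquitin chains, Birc2 and Birc3 encode the ubiquitin ligases cIAP1 and cIAP2, and Inpp5d encodes SHIP1, a lipid phosphatase of blood cells that turns over the product of phosphoinositide 3-kinase. The group name does not cover all that Birc2 and Birc3 do, since IAP ligases also build the chains that switch on NF-kB.

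Because A20 and several of its partners are known NF-kB targets, the RefSeq promoters of the 10 genes were searched for the 10-letter NF-kB consensus on both strands (build GRCm38.p6, 250 bases before to 50 after each start). All 10 genes were in the table, with 13 promoters, and 4 of the 10 held a match: Tnfaip3, Tnip1, Tnip3 and Cyld. The share of all genes in that table with a match was 9.55%, and the share of all its promoters, which have the same length, was 8.46% (2779 of 32851). The 250 bases before the start of the matching promoters are shown so that the positions can be compared, 5′ to 3′ on the gene's strand, with the letters of the match in capitals: chr10:19015411-19015660 (minus strand) for Tnfaip3, chr11:54962941-54963190 (minus) for Tnip1, chr6:65590148-65590397 (plus) for Tnip3 and chr8:88696778-88697027 (plus) for Cyld.
Tnfaip3: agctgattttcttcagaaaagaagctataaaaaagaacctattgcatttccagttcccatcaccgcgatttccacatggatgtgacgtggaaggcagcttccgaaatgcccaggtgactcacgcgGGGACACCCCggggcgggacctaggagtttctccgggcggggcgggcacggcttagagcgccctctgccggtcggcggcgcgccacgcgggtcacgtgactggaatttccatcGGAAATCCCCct
Tnip1: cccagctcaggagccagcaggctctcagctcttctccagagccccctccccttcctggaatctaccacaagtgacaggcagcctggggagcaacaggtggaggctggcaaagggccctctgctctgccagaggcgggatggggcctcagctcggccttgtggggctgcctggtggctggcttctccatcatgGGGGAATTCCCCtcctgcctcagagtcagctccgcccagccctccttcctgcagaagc
Tnip3: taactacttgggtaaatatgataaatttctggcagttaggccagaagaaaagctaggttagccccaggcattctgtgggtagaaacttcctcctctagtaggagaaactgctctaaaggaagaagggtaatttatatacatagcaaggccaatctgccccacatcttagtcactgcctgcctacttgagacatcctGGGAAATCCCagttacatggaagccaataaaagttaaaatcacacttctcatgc
Cyld: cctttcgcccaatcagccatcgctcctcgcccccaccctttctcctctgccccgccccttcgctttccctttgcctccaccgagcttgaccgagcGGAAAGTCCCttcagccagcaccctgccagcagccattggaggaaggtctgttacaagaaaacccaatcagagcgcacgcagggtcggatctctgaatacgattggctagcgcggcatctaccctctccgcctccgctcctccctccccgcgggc
Tnfaip3 had 2 separate matches, 125 to 116 and 12 to 3 bases before its start. In Tnip1 the capitals hold 3 overlapping matches, each shifted by 1 base, between 58 and 47 bases before the start. The match of Tnip3 lay 54 to 45 bases before the start and that of Cyld 155 to 146 bases before it. These are matches of letters, and binding was not measured. Transcripts that start within 100 nt of these starts made up 63.4% of the TPM (the level corrected for transcript length) of Tnfaip3, 86.7% of Tnip1, 58.8% of Tnip3 and 73.7% of Cyld. For Tnip3 this share was mostly the retained-intron transcript Tnip3-205 (33.8%), with the coding Tnip3-201 at 19.6%. The leading transcript of Tnip3, the coding Tnip3-207 (39.7%), starts further upstream, where no window was searched. The window searched for Birc3 held no match, but its leading transcript starts more than 100 nt downstream of the RefSeq start. The window covered bases upstream of that leading start, but not those right next to it. The transcripts near the RefSeq start of Birc3 held only 3.42% of the gene's TPM.

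The libraries held 32055937 to 47864978 estimated reads on genes, of which 87.3 to 89.8% fell on protein-coding genes. Levels are compared between genes in TPM, which gives every library the same total. Only 27.4 to 32.7% of that total belonged to protein-coding genes, so a change in the rest moves the TPM of every gene. Macrophage markers were high, with 10 of 10 at 1 TPM or more in every library (summed 8342 to 9918 TPM, Lyz2 highest). Other blood cells were barely seen. Of 8 neutrophil markers 3 reached 1 TPM in every library, S100a9 highest, with a sum of 10.4 to 18.4 TPM and Ly6g at 0. For B cells it was 1 of 6 (Cd79b, sum 1.5 to 3.07 TPM), and for T and NK cells 1 of 6 (Cd4, 15.6 to 21.9 TPM), with Cd3e at 0.07 TPM or less. Markers of dendritic cells (Ccr7 highest), erythroid cells (Hba-a2) and stromal or endothelial cells (Pecam1) had 0 members at 1 TPM in every library. Of 5 nuclear RNAs, 2 were at 1 TPM or more in every library, Malat1 (612, 156 and 637 TPM in replicates 1, 2 and 3) and Neat1 (24.8, 12.7 and 52.4 TPM). Xist was at 13.4, 0.66 and 3.42 TPM, Kcnq1ot1 at 0.21, 0.01 and 0.04 TPM, and Meg3 at 0. All 4 that were detected were lowest in replicate 2, while Xist and Kcnq1ot1 were highest in replicate 1 and Malat1 and Neat1 in replicate 3. In bulk RNA, fewer cells of a type and less RNA per cell cannot be told apart.

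All 10 inhibitor genes were expressed, each at 1 TPM or more in every library. The mean over libraries of their median level was 18.9 ± 6.56 TPM (SD, n = 3), beside 5.14 ± 0.315 TPM for the 12372 genes with enough counts to be tested. Inpp5d and Tnip3 were the highest and Birc2 and Tnip2 the lowest. Replicate 1 gave the highest TPM of 9 of the 10 genes, Inpp5d being the exception, and replicate 2 the lowest of 8 of the 10, all but Tnfaip3 and Tnip1. In TPM the median of all genes was itself 0.14 higher (log2) in replicate 1 than in the mean of the others. In read counts scaled to library size, described below, replicate 1 was the highest for 7 of the 10. The shares of all genes highest in replicate 1 or lowest in replicate 2 are not given here. These counts therefore do not set the inhibitor genes apart.

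**Figure D1:**
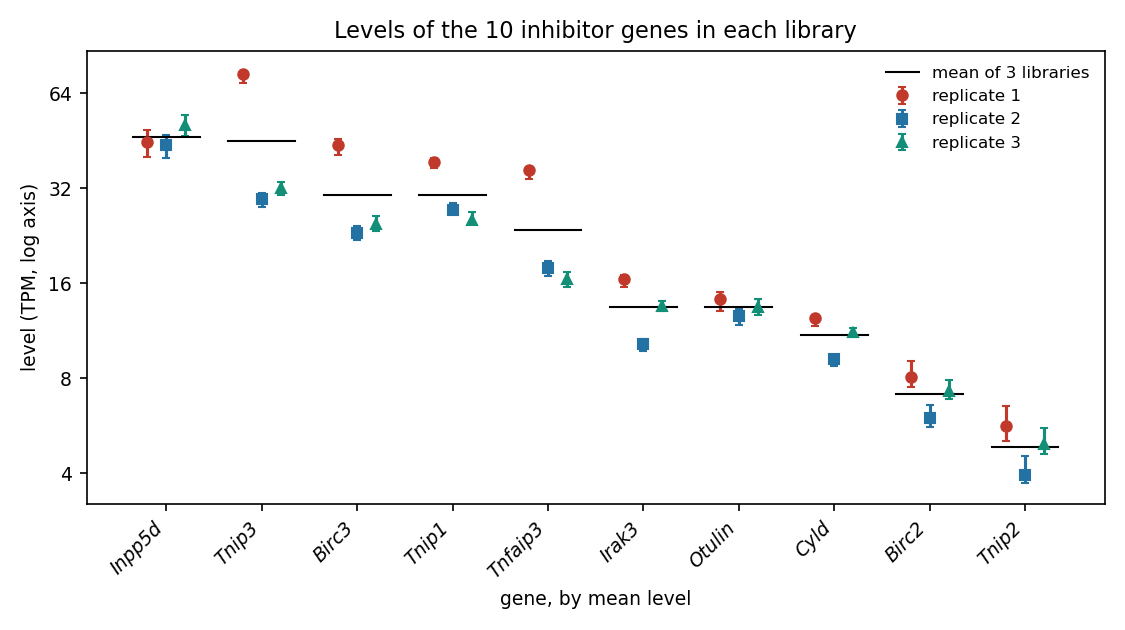
Level of each gene (TPM, log axis) in replicates 1, 2 and 3, with the deposited credibility interval of each value as a bar and the mean of the 3 libraries as a line. Tnip3, Tnfaip3 and Birc3 stood highest in replicate 1, while the 3 values of Otulin lay between 12.6 and 14.2 TPM.

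Tnfaip3 was at 36.5 TPM in replicate 1, 17.9 in replicate 2 and 16.5 in replicate 3, on 6299, 4879 and 4836 reads. Replicates 2 and 3 lay close together and replicate 1 far above both. The deposited credibility intervals, which cover the error of the read assignment within a library and whose level the files do not state, were 34.1 to 37.5, 16.9 to 18.8 and 15.6 to 17.3 TPM. The interval of replicate 1 did not touch the others. Among 9092 protein-coding genes at 1 TPM or more in every library, the mean level of Tnfaip3 stood at percentile 78.5.

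The ABIN genes differed widely in level. Tnip1, whose protein binds A20 and ubiquitin chains, was at 38.7, 27.4 and 25.3 TPM. Tnip3 was at 73.6, 29.5 and 32.1 TPM (45.1 ± 24.7, SD, n = 3), the widest spread of the 10 genes, and its mean without replicate 1 was 30.8 TPM. Tnip2, whose protein also stabilises the kinase TPL2, was the lowest gene of all 10, at 5.65, 3.95 and 4.94 TPM (4.85 ± 0.854). Within each library Tnip1 exceeded Tnip2 6.85-, 6.93- and 5.13-fold. Tnip3 exceeded Tnip1 1.90-, 1.08- and 1.27-fold, a log2 difference of 0.46 ± 0.42. With coding transcripts alone, an alternative chosen after seeing the data, that difference turned to -0.26 ± 0.35. The SD was then larger than the difference, so coding transcripts alone do not settle the order of Tnip3 and Tnip1. The same held for Tnip3 and Birc3, whose log2 difference was 0.49 ± 0.22 over all transcripts and -0.01 ± 0.21 over coding ones. Tnip3 exceeded Tnfaip3 2.02-, 1.65- and 1.94-fold, and Tnip1 exceeded Tnfaip3 1.06-, 1.53- and 1.54-fold.

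Irak3 was at 16.5, 10.2 and 13.6 TPM in replicates 1, 2 and 3, highest in replicate 1 and lowest in replicate 2. Its mean stood at percentile 64.1 of the protein-coding genes. Irak3 overlaps Tmbim4, a gene on the opposite strand at 58.3, 41.8 and 55.9 TPM, only near its 5′ end. The strand setting of the counting is not given in the sources used here, so reads in that stretch could belong to either gene.

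Both deubiquitinases were below Tnfaip3 in every library. Otulin, which cuts linear ubiquitin chains, was at 14.2, 12.6 and 13.5 TPM (13.4 ± 0.821), and its 3 credibility intervals overlapped. Cyld, which cuts linear and lysine-linked chains, was at 12.4, 9.18 and 11.2 TPM (10.9 ± 1.65), lowest in replicate 2. Otulin exceeded Cyld in each library, by 1.14-, 1.37- and 1.20-fold. Otulin overlaps Ank on the opposite strand, which was at 1.88, 2.48 and 2.17 TPM.

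Of the IAP ligases, whose genes lie next to each other on chromosome 9, Birc3 was the higher in every library. Birc3 was at 43.9, 23.1 and 24.7 TPM, high in replicate 1. Birc2 was at 8.09, 5.98 and 7.28 TPM (7.12 ± 1.06), lowest in replicate 2. The ratio of Birc3 to Birc2 was 5.43, 3.86 and 3.39 (log2 difference 2.05 ± 0.35), largest in replicate 1. The 2 genes are paralogs, and whether they shared reads was not tested. The estimated reads of Birc3 were fractional in every library (4245.52, 3969.72 and 4137.96), while those of Birc2 were fractional in replicate 1 (1103.3) and whole in replicates 2 and 3 (1316 and 1684).

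Inpp5d was at 44.8, 43.9 and 50.7 TPM, and was the only one of the 10 genes whose highest value was in replicate 3. It also had the most reads, 7676, 10736 and 13451. Its credibility intervals of 40.2 to 49.0, 40.0 to 47.3 and 47.0 to 54.8 TPM all overlapped, those of replicates 2 and 3 only narrowly.

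Ordered by mean level, the genes ran Inpp5d, Tnip3, Birc3, Tnip1, Tnfaip3, Irak3, Otulin, Cyld, Birc2 and Tnip2. Neighbours were called apart where the difference had the same sign in all 3 libraries and its mean exceeded its SD, which held for 6 of the 9 neighbouring pairs. Of all 45 pairs, 42 kept their sign in the 3 libraries. The 3 that did not were neighbours: Inpp5d and Tnip3 (log2 difference -0.71, 0.57 and 0.66), Birc3 and Tnip1 (0.18, -0.25 and -0.04) and Irak3 and Otulin (0.22, -0.30 and 0.01). Cyld and Birc2 kept the most even distance, with a log2 difference of 0.62 in each library. Birc2 exceeded Tnip2 by 0.56 ± 0.04 on the log2 scale.

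To ask which of these differences between libraries exceeded counting noise, the rounded estimated counts were compared with a likelihood-ratio test in edgeR that allows for no other spread, with Benjamini-Hochberg adjustment over all 12372 genes. The test compares these libraries, not conditions, and all 10 inhibitor genes passed its filter on low counts. Of the 10 genes 8 were called, beside 71.1% of all genes, so a call alone does not set the inhibitor genes apart. Otulin (adjusted p = 0.858) and Tnip2 (adjusted p = 0.0739) were not called. With a ratio of at least 1.5 between the highest and lowest library as a further condition, 3 of the 10 were called, beside 20.8% of all genes: Tnip3 (2.33-fold), Tnfaip3 (2.03-fold) and Birc3 (1.60-fold). Without replicate 1, 0 of the 10 genes passed that condition, beside 10.1% of all genes, and 7 passed the adjusted p alone, beside 52.3%.

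The levels behind these ratios are read counts scaled to library size with TMM factors (CPM), which compare 1 gene between libraries and are not corrected for length. Tnip3 was at 190, 81.4 and 89.1 CPM in replicates 1, 2 and 3. Tnfaip3 was at 202, 110 and 99.9 CPM. Birc3 was at 136, 89.6 and 85.5 CPM. In each of these 3 genes replicate 1 was high and the other two lay close to each other. Tnip1, at 145, 117 and 98.2 CPM, and Irak3, at 75.3, 53.2 and 67.1 CPM, were also highest in replicate 1, by less. Otulin was at 28.0, 28.5 and 28.7 CPM and Inpp5d at 247, 242 and 278 CPM, neither of them highest in replicate 1. Cyld was at 93.1, 82.4 and 95.4 CPM, so its highest library was replicate 3 on this scale and replicate 1 in TPM.

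**Figure D2:**
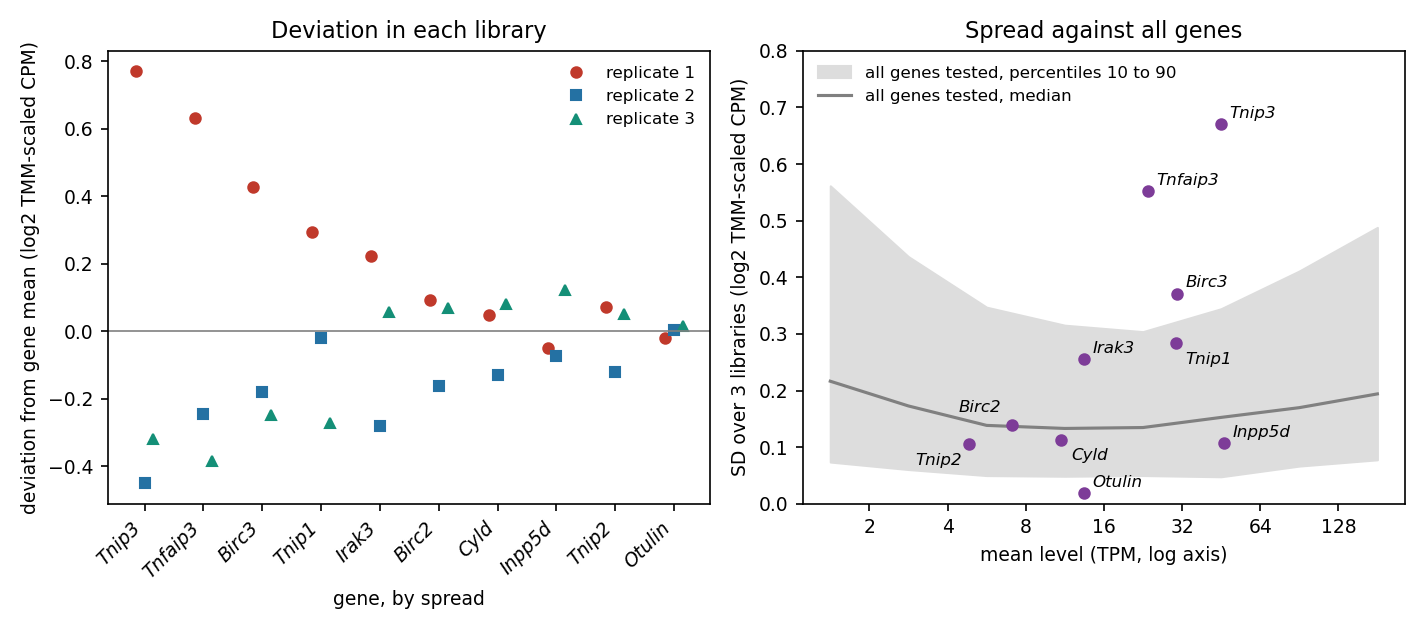
Left, deviation of each gene from its own mean in replicates 1, 2 and 3 (log2 TMM-scaled CPM); right, SD over the 3 libraries against mean level (TPM, log axis), with the median and the range from percentile 10 to 90 of all genes tested in grey. Tnip3, Tnfaip3 and Birc3 lay above the grey range, and Otulin, with an SD of 0.02, below it.

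Replicate 1 exceeded the mean of replicates 2 and 3 by 2.23-fold for Tnip3, 1.93-fold for Tnfaip3, 1.56-fold for Birc3, 1.36-fold for Tnip1 and 1.26-fold for Irak3. For Otulin the ratio was 0.979 and for Inpp5d 0.950. The nuclear RNAs Xist and Kcnq1ot1 were 6.58- and 8.40-fold higher in replicate 1 than in the mean TPM of the others, Malat1 1.54-fold higher and Neat1 at 0.763 times that mean, and their part in these differences was not tested. The SD of Tnip3 over the 3 libraries, 0.67 on the log2 scale, stood at percentile 99.0 among the 1570 tested genes within 2-fold of its level. The SD of Tnfaip3, 0.55, was at percentile 97.8 and that of Birc3, 0.37, at 93.2. Otulin, at 0.02, was at percentile 1.47. The members thus reached from near the most to near the least variable genes of their level, and their median SD was 0.20, beside 0.18 for all genes tested. It was 0.13 without replicate 1 and 0.12 without replicate 2, beside 0.14 and 0.15 for all genes, so their median then lay below. Without replicate 3 it was 0.20, beside 0.15 for all genes, so their median then lay above.

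The direction of the replicate 1 difference was checked under 4 scalings, because the median of all genes itself moved. Replicate 1 minus the mean of the others had a median over all genes of -0.01 (log2) with TMM, 0.00 with DESeq2 size factors, 0.14 in the deposited TPM and -0.11 in TPM rescaled to protein-coding genes. The members' median was 0.24, 0.25, 0.42 and 0.17. Under each scaling 8 of the 10 genes lay above the all-gene median, and Otulin and Inpp5d did not. Otulin turned positive in the deposited TPM (0.13) and was negative under the other scalings.

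The profiles of Tnfaip3, Irak3 and Inpp5d over the 3 libraries were set against the 4062 protein-coding genes at a mean of 10 TPM or more. The measure was the distance between their log2 deviations. With 3 libraries such a likeness is a description and no test. Nearest to Tnfaip3 were Batf2 (distance 0.06), Il15, Tmem171, Clec4e and Ifi208, and these 5 were all the genes within 0.1 (0.123%). Nearest to Irak3 were Ccdc71l, Marcks, Fcgr2b, Stx2 and Wdr43, of 78 genes within 0.1 (1.92%). Nearest to Inpp5d were Anapc1, Ogdh, Prkar1a, Safb and Nhlrc3, of 373 genes within 0.1 (9.18%). These counts follow from the size of the deviations, which were large in Tnfaip3 and small in Inpp5d, and do not compare the shapes of the profiles. Among the inhibitor genes themselves, Tnip2 and Cyld were the nearest pair (0.04), and Tnip3 and Inpp5d the farthest (1.00).

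The transcript tables split the 10 genes into 74 transcripts, of which 43 are annotated as protein-coding. The leading transcript of each gene was the same in both deposited quantifications for 10 of 10 genes. Irak3 and Otulin were made almost wholly of 1 transcript, Irak3-201 with 98.3 ± 0.983% of the gene's TPM and Otulin-201 with 96.2 ± 1.21% (SD, n = 3). Tnip2-202 held 89.6 ± 5.26% of Tnip2, and Birc3-201 held 80.2 ± 5.18% of Birc3, but 53.3 ± 6.51% in the second quantification.

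Tnip3 was a mix of coding and retained-intron transcripts. Its leading transcript, Tnip3-207, is one of a pair from the upstream start and held 38.6, 42.1 and 38.4% of the TPM in replicates 1, 2 and 3. A retained-intron transcript of 842 nt, Tnip3-205, held 31.2, 35.7 and 34.4%, and the coding transcript Tnip3-201 held 17.3, 19.8 and 21.6%. The order of these 3 shares was the same in every library, although the gene's level was 2.23-fold higher in replicate 1 than in the others. Coding transcripts made up 59.5 ± 2.96% of the TPM of Tnip3 and 77.2 ± 6.54% of its reads, since TPM gives short transcripts more weight per read. In the other 9 genes the coding share of TPM ran from 73.8% in Inpp5d to 98.9% in Irak3. In the second quantification the coding share of Tnip3 was 56.7 ± 1.70% and that of Birc3 62.6 ± 7.27%, so there Birc3 lay close to Tnip3. The short non-coding Birc3-205 and Birc3-206 held 17.3 and 18.0% of Birc3 there. In the first quantification they rested on 17, 6 and 12 reads and on 31, 14 and 16 reads. Tnip3-205 rested on 700, 522 and 567 reads. The nuclear RNA Malat1 was at 612, 156 and 637 TPM in these libraries. Whether the retained-intron transcripts of Tnip3 and Inpp5d lay in the cytosol was not tested.

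**Figure D3:**
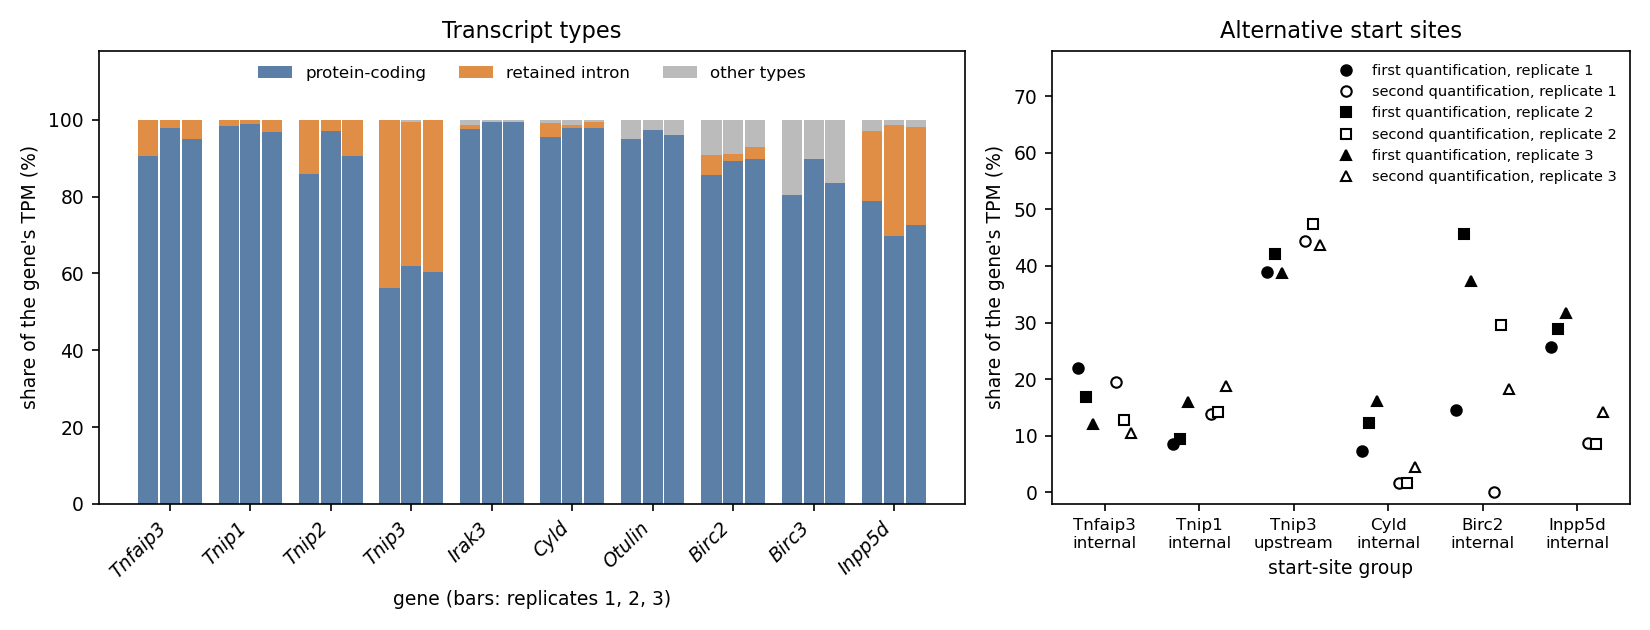
Left, share of each gene's TPM held by protein-coding, retained-intron and other transcripts in replicates 1, 2 and 3; right, share held by transcripts from an alternative start in 6 genes, filled symbols for the first and open symbols for the second quantification. Tnip3 had the largest retained-intron share, 40.4 ± 3.14%, and the internal start of Birc2 varied most between libraries.

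Tnfaip3-201, the transcript from the promoter shown above, held 53.3, 61.7 and 68.0% of Tnfaip3. Tnfaip3-202, a coding transcript from an internal start, held 22.0, 16.8 and 12.0%, lowest where Tnfaip3-201 was highest. The second quantification put Tnfaip3-202 at 19.4, 12.8 and 10.5%, in the same order. Tnfaip3-204 held 16.5 ± 2.41%, but this transcript is 456 nt long and rested on only 62.1, 64.6 and 48.2 reads.

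In Birc2 the balance of the transcripts from the main and the internal start differed between libraries. Birc2-204 held 71.3, 43.7 and 52.3% of Birc2 and the internal Birc2-202 held 14.4, 45.4 and 37.3%. Replicate 1 thus had the lowest share of the internal transcript. In the second quantification Birc2-202 was at 0.0381, 29.5 and 18.4%, again lowest in replicate 1, with lower values throughout.

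Inpp5d-210, a coding transcript of 27 exons, held 40.3, 32.4 and 34.1% of Inpp5d. The retained-intron transcript Inpp5d-203, only 364 nt long, held 18.0, 28.8 and 25.4% of the TPM on 55.0, 146 and 154 reads, so 24.1 ± 5.50% of the level of Inpp5d rested on few reads. Coding transcripts gave Inpp5d 34.3 ± 3.23 TPM, and it remained first in the order of means. In replicate 1, however, its coding transcripts were at 35.4 TPM, below those of Tnip3 (41.3) and Tnip1 (38.1). The internal start that Inpp5d-211 and Inpp5d-208 share held 28.7 ± 2.98% in the first quantification and 10.6 ± 3.22% in the second, so its share is not settled by these tables. In the second quantification Inpp5d-201 held 10.9 ± 1.80%.

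Tnip1 was split between Tnip1-205 (52.8 ± 4.19%) and Tnip1-202 (27.7 ± 2.57%), which start at the same promoter. Tnip1-208, from an internal start, held 11.5 ± 1.51% in the second quantification. Cyld was led by Cyld-206 (59.2 ± 1.20%), followed by Cyld-204 (12.4 ± 2.34%) and Cyld-203 (12.0 ± 4.45%). Cyld-203 held 2.61 ± 1.59% in the second quantification, in which Cyld-210 held 12.3 ± 3.97%. In that quantification the short Birc3-205 and Birc3-206 held 17.3 ± 4.51% and 18.0 ± 3.20% of Birc3, and Birc2-205 held 13.5 ± 0.882% of Birc2.

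The second quantification came from the same reads and is no replicate. After each library's TPM was rescaled to its protein-coding genes, the second gave 0.978 to 1.07 times the first for 8 of the 10 genes, beside a median of 0.998 ± 0.0113 over 9354 protein-coding genes. Tnip3 was 1.13 ± 0.0298 times as high and Birc3 1.43 ± 0.0834 times as high. In reads, without rescaling, the ratio for Birc3 was 1.12 ± 0.0259, beside 1.06 to 1.11 for the other 9 genes, so Birc3 stood further out in TPM than in reads.

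Genes that work with the inhibitors were described from 5 lists of 52 genes in all. All 52 were found, 48 of them at 1 TPM or more in every library, and all 52 were tested between libraries. By adjusted p alone 45 of the 52 were called, and 8 with a ratio of at least 1.5, beside the same 71.1% and 20.8% of all genes.

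Partners of A20 and related ubiquitin enzymes had a median of 29.2 ± 4.93 TPM (SD, n = 3). With 6 genes, it fell in the gap between the mean levels of Rnf11 (15.97 TPM) and Tax1bp1 (42.4 TPM). The inhibitors' median of 18.9 TPM fell in the same gap, so whether this list stood above the inhibitors depends on single genes. Usp18, which removes ISG15 and is itself interferon-induced, was the highest at 159, 73.2 and 80.5 TPM, high in replicate 1 like Tnfaip3, and was the only one of the 6 called at 1.5-fold. Otud7b, a relative of A20, was the lowest at 3.86 ± 0.426 TPM. Genes of linear ubiquitin and the RIP kinases had a median of 16.4 ± 2.32 TPM, from Sharpin, a subunit of the linear ubiquitin ligase (30.6 ± 2.77 TPM), to Spata2, which links Cyld to it (6.13 ± 0.633 TPM). Of these 10 genes 1 was called at 1.5-fold, Ripk2, a kinase of the NOD receptors.

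IAP, TRAF and TNF receptor genes had a median of 9.03 ± 2.96 TPM. Tnfrsf1b, a receptor of TNF, was at 173 ± 32.9 TPM and Birc5, a mitotic relative of Birc2 and Birc3, at 0.95 ± 0.166 TPM. Of these 11 genes 2 were called at 1.5-fold, Traf1 and Traf2, whose proteins bind the cIAP ligases. In the MyD88 complex the median was 8.61 ± 0.614 TPM, from Myd88 itself (49.9 ± 7.13 TPM) to Peli3 (0.19 ± 0.0458 TPM). There 4 of 11 were called at 1.5-fold: Irak2, Peli1, Sigirr and Peli3. Irak2 and Peli1 were highest in replicate 1, and Sigirr and Peli3, both under 1 TPM, in replicate 2. Genes around SHIP1 and the inhibitory receptors had a median of 18.1 ± 1.09 TPM, from Pik3ap1, an adaptor of phosphoinositide 3-kinase (266 ± 41.0 TPM), to Inpp4b (0.483 ± 0.10 TPM). None of these 14 genes was called at 1.5-fold and 13 were called by adjusted p alone in edgeR, as Inpp5d itself was.

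**Figure D4:**
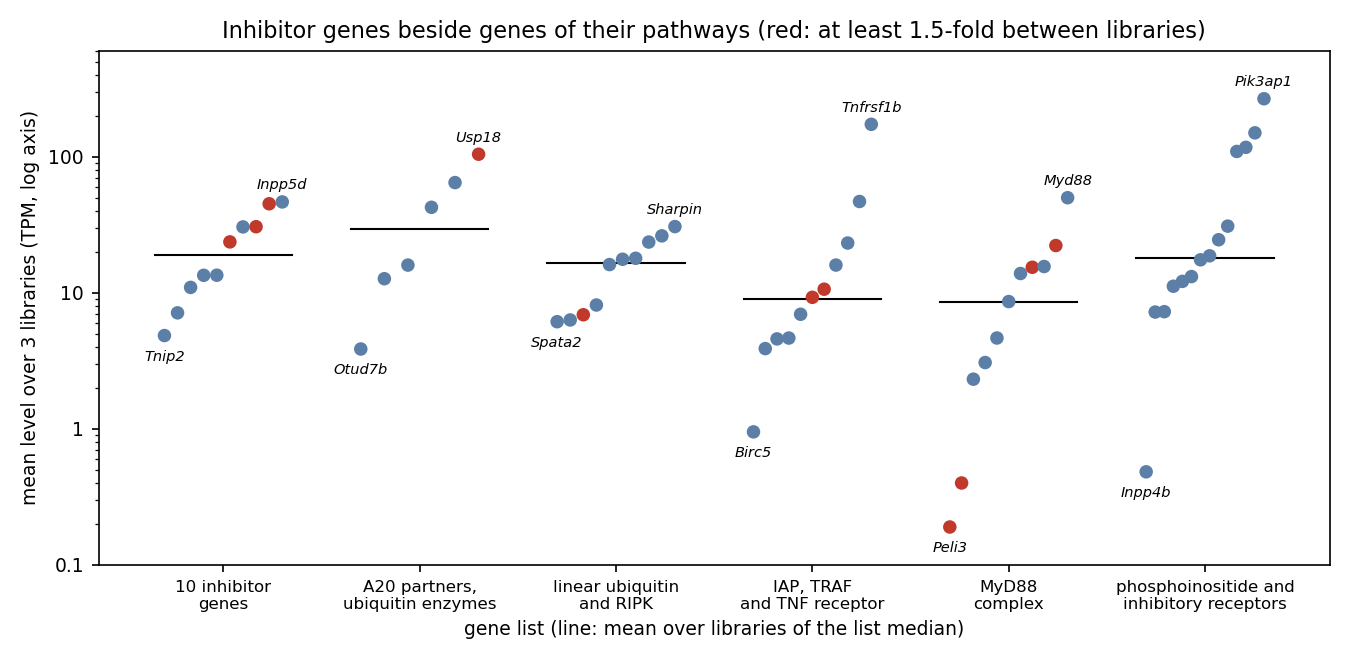
Mean level over the 3 libraries (TPM, log axis) of the 10 inhibitor genes and of the 5 pathway lists, with each list's median as a line and genes called at 1.5-fold or more between libraries in red. The inhibitors lay between 4.85 and 46.5 TPM, and no gene of the phosphoinositide and inhibitory receptor list is red.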

How the data were processed

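Total RNA-seq of the cytosolic fraction was analysed in 3 libraries of 1 group. Per the file headers and text files deposited with them, the authors quantified each library separately against mm10 and GENCODE M21. The authors' first tables, made from transcriptome alignments, gave expected counts and TPM per gene and transcript. They also deposited each transcript's share of its gene in percent. The deposited bounds of a credibility interval of TPM are treated as a score. A second set of transcript tables, which the authors made from the reads, gave estimated counts and TPM. Which programs and strand setting were used is not stated. The deposited expected counts were rounded and tested with edgeR 4.0.16 (R 4.3.3; TMM factors, filterByExpr, dispersion set to 0, likelihood-ratio test on 2 degrees of freedom, adjusted p below 0.05); this asks only whether libraries differ beyond counting noise. With 1 group there was no contrast, and an exact sign-flip test over 3 libraries cannot go below p = 0.25, so single levels were not tested. The deposited TPM were compared between genes within a library. Alternatives were DESeq2 1.42.0 size factors, no filter on low counts, the second quantification, TPM rescaled to protein-coding genes, the posterior mean TPM, leaving out each library and, chosen after seeing the data, coding transcripts only. Named were all 10 genes, their transcripts at a mean of 10% or more in either quantification, the highest and lowest gene of each list, the highest marker of each list, the 5 nearest genes by profile and, chosen after their values were seen, list genes called at 1.5-fold or more, other markers and neighbouring genes. The genes and lists were chosen with earlier results of these data known. The script was tested on simulated counts.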

Additional observations from a re-analysis of the deposited data

How the results depend on the processing

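The members' median level was 18.9 TPM, 9.74 in the second quantification and 63.7 in TPM of protein-coding genes, 2 scales with other totals, and 15.2 to 20.9 with 1 library left out. With coding transcripts only, chosen after seeing the data, it was 18.0. Pairs of neighbours apart numbered 4 to 7 with 1 library left out. Tnip3, not Inpp5d, came first in the order in the second quantification and without replicate 2 or replicate 3. Members called at 1.5-fold or more were 3 (20.8% of all genes) and fell to 0 without replicate 1 (10.1%), with 3 without replicate 2 (13.5%) or 3 (12.2%). They were 3 with DESeq2 size factors (20.7%), with no filter on low counts (20.5%) and in the second quantification (25.5%). Members called with no fold minimum were 7, 6 and 8 without replicates 1, 2 and 3 (52.3, 53.4 and 51.6% of all genes) and 9 with DESeq2 size factors (70.7%). The members' median SD, 0.20 on the log2 scale, was 0.13, 0.12 and 0.20 without replicates 1, 2 and 3. The median of all genes was then 0.14, 0.15 and 0.15. In the deposited TPM the members' median SD was 0.29. The members' median ratio of the second to the first quantification was 1.05, and 0.521 without rescaling. Over all transcripts Tnip3 exceeded Tnip1 and Birc3 in every library. With coding transcripts only, the log2 difference was -0.26 ± 0.35 to Tnip1 and -0.01 ± 0.21 to Birc3. Neither order was settled then, and in replicate 1 Tnip3 still exceeded Tnip1 (41.3 against 38.1 TPM). The highest library of Cyld was replicate 3 in CPM and replicate 1 in TPM. No paired analysis was possible because the libraries form 1 group. Short transcripts with few reads limit the transcript shares.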
